A study of Drosophila melanogaster with 12 samples.

Results

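The amylase genes Amy-p, Amy-d and Amyrel and the sugar-responsive gene tobi are 4 genes chosen by name from the 14001 genes of the deposited table. All 4 were found, and each was measured above 0 in all 12 libraries. Gene expression was measured by RNA sequencing of whole *Drosophila melanogaster*, as third-instar larvae and as adults, of a strain labelled sensitive and wild type and of a strain labelled resistant to avermectins, a class of insecticides whose target is a chloride channel opened by glutamate. This gave 4 groups of 3 libraries, larvae and adults of the sensitive and of the resistant strain. Beyond the word wild type, the labels give no genotype, and they name no transgene, sex, exact age or diet, and do not say how many animals made up a library or whether replicates were separate cultures, so p-values rest only on how far these libraries spread, and that spread may be technical. Each strain is a single strain, so resistance and any other difference in genetic background cannot be told apart.

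Alpha-amylase is a secreted enzyme of the fly midgut that cuts starch and glycogen into maltose and short glucose chains, which maltases then split into glucose. Amy-p and Amy-d are the proximal and distal copies of a duplicated amylase gene, and dietary glucose is known to repress amylase expression. Amyrel is a diverged relative of the amylase genes with a role of its own on short glucose chains. The gene tobi (target of brain insulin) encodes a protein of the alpha-glucosidase kind. Its transcript is known to depend on insulin-like peptides and on adipokinetic hormone, the fly counterpart of glucagon, and to respond to the diet.

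On the dm6 assembly Amy-p (FBgn0000079) lies at 2R:17118636-17120303 on the minus strand and Amy-d (FBgn0000078) at 2R:17124764-17126369 on the plus strand. Both have 1 exon, and 4460 bases separate them. Amyrel (FBgn0020506), at 2R:16651095-16652699 on the minus strand, has 2 exons and lies 465.9 kb from Amy-p. The gene tobi (FBgn0261575), at 3R:25344761-25346921 on the minus strand, also has 2 exons. All are protein-coding. The opposite-strand gene gprs shares 31 exonic bases with Amyrel and rha shares 78 with tobi. Whether the counting used strand is not stated by the labels, so reads in those short overlaps cannot be assigned with certainty. The larger uncertainty is that of Amy-p and Amy-d, near-identical copies whose shared reads the counting has to divide. Their sum, which does not depend on that division, was therefore tested beside them.

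Values are FPKM, fragments per kilobase of transcript scaled to library size, as the authors deposited them. From the steps between low values, libraries were estimated to hold 11020000 to 12360000 reads. Larval markers (glue and larval serum genes) summed to at least 40987.6 FPKM in each larval library and to 15.3 to 129 FPKM in adults. Adult markers (yolk, eye, accessory gland and flight muscle genes) summed to at least 8061.9 FPKM in each adult library. In larvae they reached 112 to 155 FPKM in the sensitive strain, nearly all from Yp3, and 5.20 to 7.40 FPKM in the resistant strain. Of the 1000 most variable genes, the first principal component (91.3% of the variance) separated the stages. Along the second (3.7%) the larval strains parted, with sensitive larvae at 17.7 to 25.8 and resistant larvae at -29.4, -27.2 and, for replicate 3, -8.9. Tests were made with limma on log2(FPKM + 1) over all genes with at least 3 libraries of the comparison at 1 FPKM or more, and a gene was called at an adjusted p below 0.05 (Benjamini-Hochberg). The added 1 FPKM makes fold changes of low genes smaller than their ratios of FPKM.

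The first question was how larvae differ from adults in each strain. Both amylase copies and tobi were far lower in larvae than in adults, and Amyrel was higher in larvae, in both strains. In the sensitive strain 3 of the 4 genes were called lower and 1 higher in larvae, where 55.7% of 11644 tested genes were lower and 13.2% higher. In the resistant strain the counts were again 3 lower and 1 higher, where 34.7% of 12013 genes were lower and 17.4% higher. The calls stood after median-of-ratios scaling, which divides each library by a size factor and moves the median log2 fold change of all genes from -0.62 to -0.02 in the sensitive and from -0.28 to -0.03 in the resistant strain. With that scaling, 28.4% of genes were lower and 26.6% higher in sensitive larvae, and 28.1% lower and 24.9% higher in resistant larvae.

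**Figure D1:**
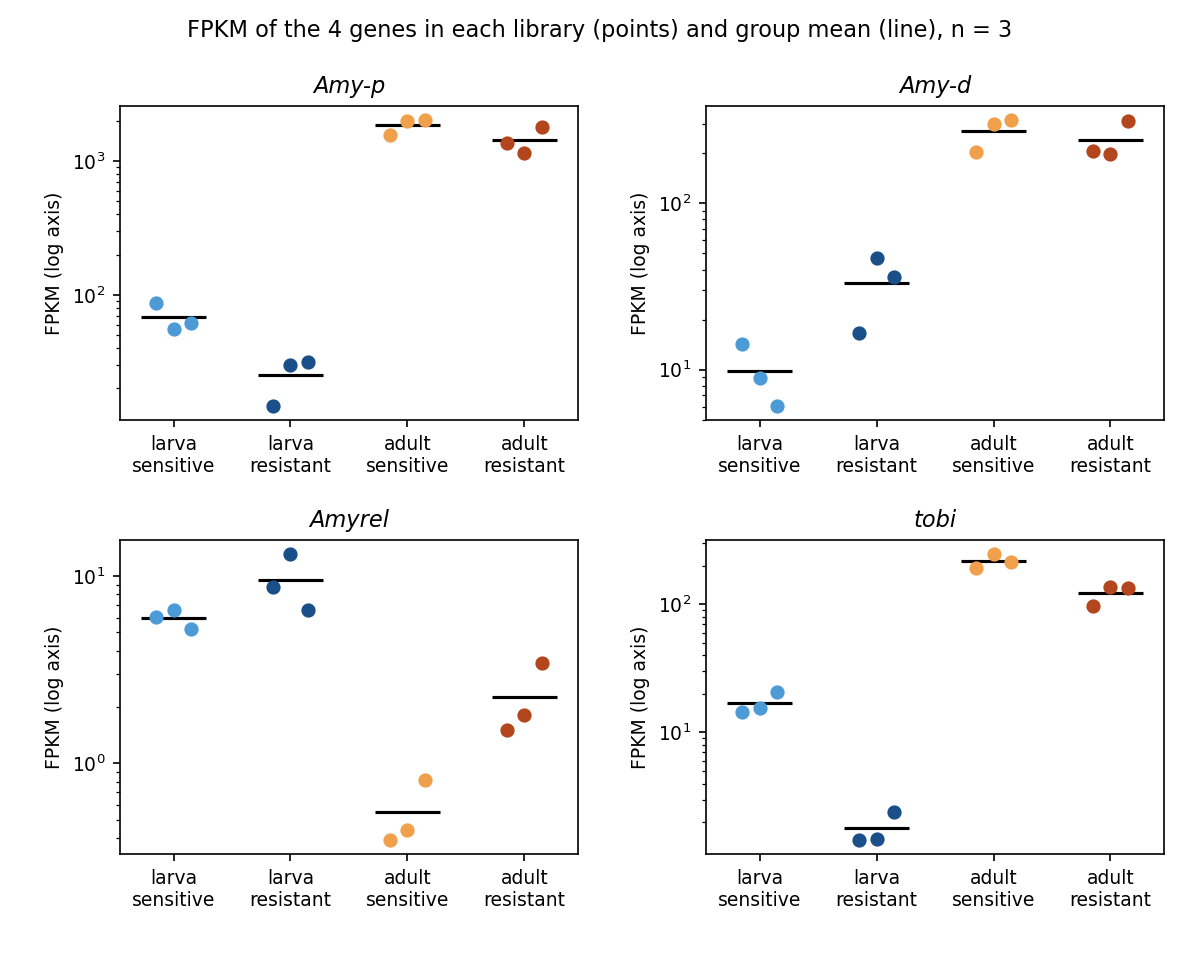
FPKM (log axis) of Amy-p, Amy-d, Amyrel and tobi in each of the 12 libraries, as points, with the mean of each group of 3 as a line. In each panel the larval and adult libraries of a strain do not overlap; Amyrel is the gene with larvae above adults.

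Amy-p, the proximal amylase copy, was at 86.36, 55.66 and 61.21 FPKM in sensitive larvae and at 14.80, 29.78 and 31.33 FPKM in resistant larvae. In adults it was at 1571.33, 2000.63 and 2024.00 FPKM in the sensitive strain and at 1354.55, 1153.38 and 1776.97 FPKM in the resistant strain. Every adult library was above every larval one, a lack of overlap shared by 73.6% of tested genes in the sensitive and 58.7% in the resistant strain, and Amy-p ranked between 106 and 165 from the top of the genes in adults and between 1046 and 4687 in larvae. The log2 fold change, larva minus adult, was -4.78 with a standard error (SE) of 0.21 in the sensitive strain (adjusted p 1.96e-07, limma) and -5.81 with an SE of 0.31 in the resistant strain (adjusted p 3.64e-08).

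Amy-d, the distal copy, was at 14.29, 8.90 and 6.05 FPKM in sensitive larvae and at 16.53, 47.13 and 35.86 FPKM in resistant larvae. In adults it was at 203.27, 301.20 and 317.51 FPKM in the sensitive strain and at 206.83, 197.98 and 313.77 FPKM in the resistant strain. The adult strains overlap, whereas each resistant larval library lies above each sensitive one. The log2 fold change, larva minus adult, was -4.72 (SE 0.29, adjusted p 1.66e-06, limma) in the sensitive strain. In the resistant strain it was smaller in size, at -2.90 (SE 0.36, adjusted p 5.05e-05).

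The summed FPKM of both copies was 77.5 ± 20.1 in larvae and 2139 ± 316 in adults of the sensitive strain, and 58.5 ± 24.0 and 1668 ± 381 in the resistant strain (mean ± SD, n = 3, as throughout). Mean amylase FPKM was thus 27.6 times higher in adults than in larvae of the sensitive strain and 28.5 times higher in the resistant strain. On the log2 scale the sum changed by -4.79 (SE 0.22, adjusted p 2.42e-07, limma) and -4.88 (SE 0.34, adjusted p 3.59e-07). After median-of-ratios scaling these changes were -4.09 (17 times) and -4.60 (24.2 times), so the near-equal ratios belong to the FPKM as deposited. The test of the difference between those changes gave -0.10 with a 95% interval of -1.02 to 0.83 (adjusted p 0.877), and after scaling -0.53 (-1.62 to 0.55, adjusted p 0.441). It did not separate the strains, and the intervals allow a difference of either sign. Its sign turned when any of 4 libraries was left out: sensitive larvae replicate 1 (0.10), resistant larvae replicate 1 (0.29), sensitive adults replicate 1 (0.03) or resistant adults replicate 3 (0.08).

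Amyrel, the diverged relative, ran the other way. It was at 6.02, 6.60 and 5.24 FPKM in sensitive larvae and at 8.78, 13.09 and 6.57 FPKM in resistant larvae. Sensitive adults had 0.39, 0.44 and 0.82 FPKM, which is about 7, 8 and 15 reads, and resistant adults had 1.51, 1.81 and 3.43 FPKM, or about 26, 31 and 61 reads. These are low levels in adults, where counting error alone is large. The log2 fold change, larva minus adult, was 2.17 (SE 0.18, adjusted p 1.00e-05, limma) in the sensitive strain and 1.69 (SE 0.30, adjusted p 0.000638) in the resistant strain. The ratio of mean FPKM, 10.8 and 4.21, is larger than these fold changes because of the added 1 FPKM, and with 0.1 FPKM added the log2 fold changes were 3.27 and 2.06.

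The gene tobi was at 14.49, 15.39 and 20.65 FPKM in sensitive larvae. It was at 1.45, 1.49 and 2.42 FPKM in resistant larvae, which is about 37, 38 and 62 reads. Adults had 192.77, 245.56 and 212.77 FPKM in the sensitive strain and 96.65, 136.84 and 133.71 FPKM in the resistant strain. No group overlaps another, and from low to high the order is resistant then sensitive larvae, followed by resistant and then sensitive adults. The log2 fold change, larva minus adult, was -3.62 (SE 0.18, adjusted p 3.72e-07, limma) in the sensitive strain and -5.47 (SE 0.25, adjusted p 9.88e-09) in the resistant strain.

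**Figure D2:**
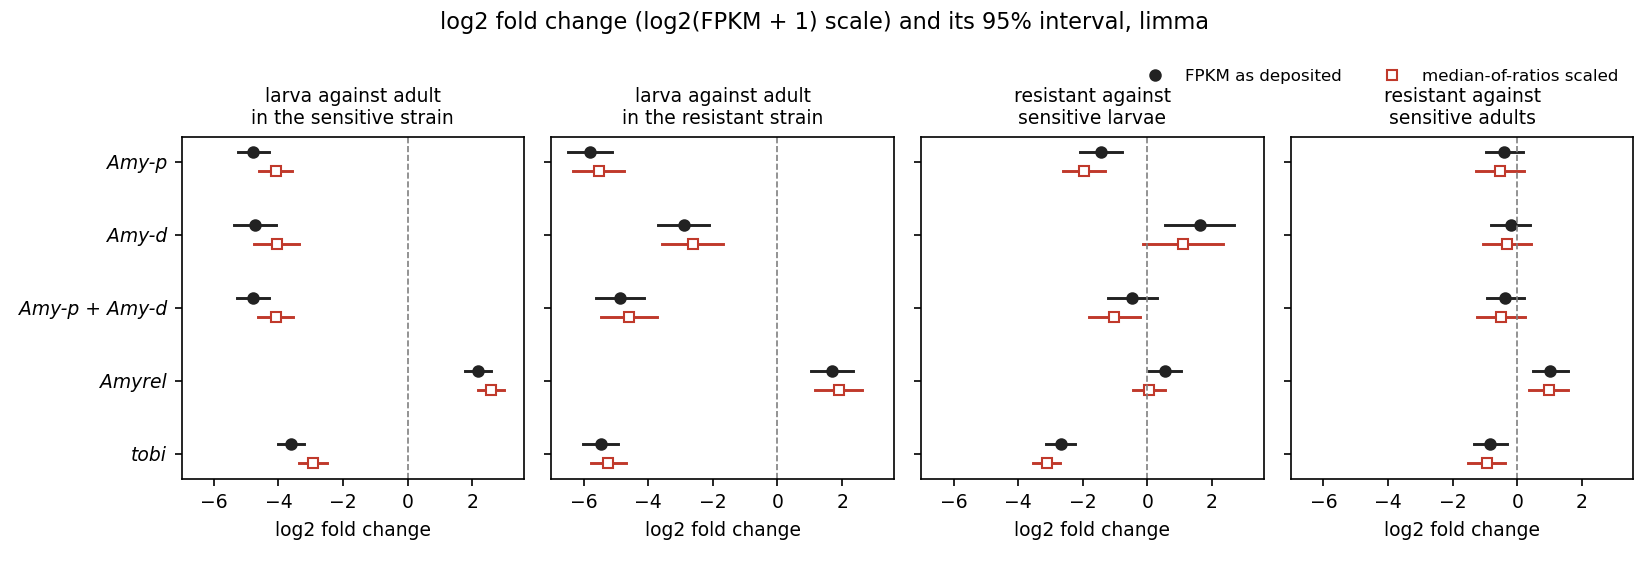
Log2 fold change on the log2(FPKM + 1) scale (x axis) with its 95% interval from limma for the 4 genes and the sum of both amylase copies, in 4 comparisons, on FPKM as deposited (filled circles) and after median-of-ratios scaling (open squares). Values below 0 are lower in larvae (left 2 panels) or in the resistant strain (right 2 panels).

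The libraries hold whole bodies, in which fewer cells of a type and less RNA per cell cannot be told apart. Markers of the gut were therefore set beside the amylases. Of 27 trypsin and Jonah digestive proteases, 15 were called higher and 3 lower in sensitive larvae against adults, and 20 higher and 1 lower in the resistant strain. Their median log2 fold changes were 1.71 and 2.16, where those of all genes were -0.62 and -0.28. Their summed FPKM was 41922.5 to 108291.5 in sensitive larvae and 19681.9 to 26610.1 in sensitive adults. In the resistant strain it was 52470.4 to 78871.4 in larvae and 12296.2 to 18545.6 in adults. The proteases as a sum were thus higher in larvae, the opposite of the amylases, and no protease was listed at 0 in a whole group. Among those called lower in sensitive larvae was alphaTry (-3.72, SE 0.35, adjusted p 2.27e-05, limma). The proteases gammaTry and deltaTry had identical values in resistant adults (10.04, 7.88 and 4.24 FPKM), so their calls may not be separate. The 8 midgut epithelium markers summed to 94.8 to 247 FPKM in sensitive larvae and 170 to 276 FPKM in sensitive adults, and to 173 to 218 and 259 to 283 FPKM in the resistant strain, with none at 0 in a whole group. Of the 7 tested, 1 was called higher and 3 lower in sensitive larvae, or 1 and 0 after scaling, and 3 higher and 2 lower in resistant larvae under both. Their median log2 fold changes were -0.35 and 0.60. Beside the counts of both gut lists, 13.2% of all genes were higher and 55.7% lower in sensitive larvae (scaled, 26.6% and 28.4%). In resistant larvae the shares were 17.4% and 34.7% (scaled, 24.9% and 28.1%). The markers did not move together: mex1, a gene of the enterocytes, was higher in larvae of both strains, by 0.59 on the log2 scale in the sensitive strain (adjusted p 0.026, limma) and by 2.74 in the resistant strain (8.73e-06). PGRP-SC1a and PGRP-SC1b, amidases that break down bacterial peptidoglycan, were lower in resistant larvae than adults, at -5.68 and -5.24 (adjusted p 4.97e-08 and 1.41e-07). The part of gut cell content in the amylase difference was not tested.

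The second question was how the strains differ within a stage. In larvae tobi fell 9.43 times in mean FPKM, from 16.84 ± 3.33 in the sensitive to 1.79 ± 0.55 in the resistant strain. The log2 fold change, resistant minus sensitive, was -2.68 (SE 0.20, adjusted p 3.19e-05, limma), and only 0.8% of the tested genes had a lower one. After median-of-ratios scaling it was -3.12 (adjusted p 2.76e-07), against a median over all genes that moved from 0.49 to 0.03. With 0.1 FPKM added it was -3.19. Amy-p also fell, from 67.7 ± 16.4 to 25.3 ± 9.13 FPKM, with a log2 fold change of -1.43 (SE 0.29, adjusted p 0.00343) and -1.97 after scaling (adjusted p 0.000728). In this comparison 2 of the 4 genes were called lower and 1 higher, where 9.84% of 11055 genes were lower and 48.8% higher. After scaling, 2 were lower and 0 higher, against 19% and 11.3% of genes.

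The gene called higher in resistant larvae was Amy-d, at 33.2 ± 15.5 against 9.75 ± 4.18 FPKM, a log2 fold change of 1.62 (SE 0.44, adjusted p 0.0205, limma). The libraries of the strains did not overlap, as was so for 65.3% of the tested genes. Its call ended after median-of-ratios scaling (log2 fold change 1.10, adjusted p 0.149) and without sensitive larvae replicate 2 (0.0703), sensitive larvae replicate 3 (0.0564) or resistant larvae replicate 2 (0.0539). The sum of both copies gave a log2 fold change of -0.47, with a 95% interval of -1.23 to 0.30 (adjusted p 0.251), and -1.02 after scaling (-1.82 to -0.22, adjusted p 0.0578). Amyrel was at 9.48 ± 3.32 against 5.95 ± 0.68 FPKM and overlapped, with a log2 fold change of 0.55 (0.05 to 1.05, adjusted p 0.0566) that was 0.06 after scaling. Without resistant larvae replicate 3, the library that lies between the strains on the second component, Amyrel was called (0.76, adjusted p 0.0151) and tobi, Amy-p and Amy-d kept their calls.

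The split between the amylase copies set resistant larvae apart. Amy-p made up 85.8, 86.2 and 91.0% of the summed FPKM in sensitive larvae, 88.5, 86.9 and 86.4% in sensitive adults and 86.8, 85.3 and 85.0% in resistant adults. In resistant larvae it made up 47.2, 38.7 and 46.6%, so that Amy-d was the more abundant copy in each of these libraries. A share within a library does not depend on how libraries are scaled. The difference between the larval strains was -43.5 percentage points (exact two-sided permutation test, p = 0.1, the smallest that 3 against 3 libraries allow), and between the resistant stages -41.5 points (p = 0.1). Between the adult strains it was -1.6 points (exact permutation test, p = 0.2), and between the sensitive stages 0.4 points (p = 1.0). The labels do not say how reads shared by the copies were divided, and the part of that division in the split was not tested.

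**Figure D3:**
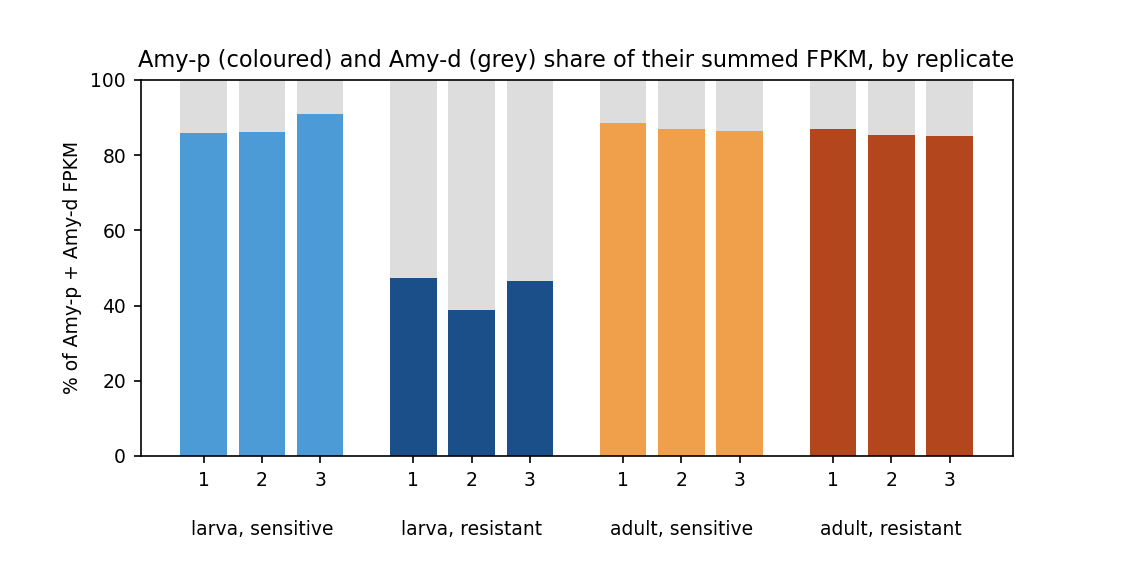
Percent of the summed FPKM of Amy-p and Amy-d that belongs to Amy-p (coloured) and to Amy-d (grey) in each library, numbered by replicate. Amy-p holds 85.0 to 91.0% in 9 libraries and 38.7 to 47.2% in the 3 libraries of resistant larvae.

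In adults tobi was lower and Amyrel higher in the resistant strain, and neither amylase copy was called. The gene tobi was at 122 ± 22.4 FPKM in the resistant and 217 ± 26.7 FPKM in the sensitive strain, a log2 fold change of -0.83 (SE 0.22, adjusted p 0.0284, limma) and -0.95 after scaling (adjusted p 0.0337). This call ended without sensitive adults replicate 2 (adjusted p 0.131), sensitive adults replicate 3 (0.0941) or resistant adults replicate 1 (0.164), with the log2 fold change between -0.92 and -0.67 over the libraries left out in turn. Amyrel was at 2.25 ± 1.03 against 0.55 ± 0.24 FPKM, a log2 fold change of 1.03 (SE 0.24, adjusted p 0.0167) and 0.97 after scaling (0.0388). Its call ended without sensitive adults replicate 1 (0.0609) or replicate 2 (0.0541). So 1 of the 4 genes was called lower and 1 higher in resistant adults, where 3.95% of 11612 genes were lower and 15.9% higher, and after scaling again 1 and 1, against 4.13% and 11%. The libraries of the adult strains did not overlap for tobi and Amyrel, nor for 32.1% of tested genes.

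Amy-p, at 1428 ± 318 against 1865 ± 255 FPKM, and Amy-d, at 240 ± 64.5 against 274 ± 61.8 FPKM, overlapped between the adult strains. Their log2 fold changes were -0.40 (95% interval -0.97 to 0.17, adjusted p 0.392, limma) and -0.20 (-0.80 to 0.41, adjusted p 0.777). The sum of the copies gave -0.37 (-0.95 to 0.20, adjusted p 0.451). These intervals leave room for changes of either sign.

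Some markers of stage and sex also differed in these strain comparisons. Yp3, a yolk protein gene and one of the adult markers, was at 132 ± 24.0 FPKM in sensitive and 5.84 ± 1.09 FPKM in resistant larvae. The adult-high genes tobi and Amy-p were likewise higher in sensitive larvae, whereas Amy-d, also adult-high, was higher in resistant larvae. Larval and fat body markers were mixed between the larval strains. Of 7 tested larval markers 1 was called higher and 3 lower in resistant larvae (scaled, 0 and 3), and of 6 fat body markers 0 and 3 under both. Of all genes 48.8% were higher and 9.84% lower there (scaled, 11.3% and 19%). The sums overlapped. Larval markers summed to 40987.6 to 63037.3 FPKM in resistant and 49869.0 to 77554.8 FPKM in sensitive larvae. Fat body markers summed to 14037.7 to 24297.4 and 16789.7 to 22161.9 FPKM. Lsp1alpha, a larval serum protein gene, was at 273 ± 44.6 FPKM in the resistant and 3540 ± 821 FPKM in the sensitive strain (-3.68, SE 0.24, adjusted p 1.45e-05, limma), and apolpp, a lipid carrier gene of the fat body, at 58.6 ± 23.2 and 208 ± 62.5 FPKM (-1.85, SE 0.34, adjusted p 0.00275). Larval markers summed to 88.5 to 129 FPKM in resistant and 15.3 to 21.9 FPKM in sensitive adults, with Sgs4 at 0 in both, beside the higher Amyrel in resistant adults. The male accessory gland gene Acp26Aa was at 149 ± 32.7 FPKM in adults of the resistant and 47.6 ± 1.75 FPKM in those of the sensitive strain, and Yp1, made in females, at 2606 ± 680 and 5433 ± 511 FPKM. The part of exact age, sex ratio or fat body content in the differences of the 4 genes was not tested.

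A test of the difference between the strains in the change from adult to larva, over all 12 libraries, called 1 of the 4 genes higher and 1 lower in the resistant strain, where 19.7% of 12270 genes were higher and 9.98% lower. After scaling it called 0 higher and 2 lower, against 7.85% and 15.6%. The gene tobi had a further log2 change of -1.85 in the resistant strain (SE 0.30, adjusted p 0.000891, limma) and -2.26 after scaling (adjusted p 0.000327), and the call stood without any 1 of the 12 libraries. Amy-d gave 1.82 (SE 0.51, adjusted p 0.0183), a call that ended after scaling (1.42, adjusted p 0.0979) and without sensitive larvae replicate 3 (0.0528). Amy-p gave -1.03 (SE 0.39, adjusted p 0.0602) and was called after scaling (-1.47, adjusted p 0.0365) and without resistant larvae replicate 3 (-1.22, 0.0396) or resistant adults replicate 2 (-1.17, 0.0391). Amyrel gave -0.48 (95% interval -1.26 to 0.29, adjusted p 0.307).

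Maltases, the enzymes that take over the products of amylase, were next set beside the 4 genes. In the sensitive strain 9 of 10 were lower and 1 higher in larvae than in adults, with a median log2 fold change of -3.50 where the median of all tested genes was -0.62. In the resistant strain 6 were lower and 1 higher (median -2.91, all genes -0.28). The counts were the same after scaling. Among all genes 55.7% were lower and 13.2% higher in sensitive larvae (scaled, 28.4% and 26.6%). For resistant larvae these shares were 34.7% and 17.4% (scaled, 28.1% and 24.9%). Mal-A1 was at 6.42 ± 4.19 FPKM in sensitive larvae and 650 ± 103 FPKM in sensitive adults, and at 5.46 ± 1.86 and 257 ± 100 FPKM in the resistant strain. The one maltase higher in larvae of both strains was Mal-A5, at 171 ± 16.4 against 99.9 ± 4.98 FPKM in the sensitive and 214 ± 42.2 against 75.6 ± 4.65 FPKM in the resistant strain. It shares this direction with Amyrel.

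Between adult strains, 6 of 10 maltases were called lower and 0 higher in the resistant strain, also after scaling, with a median of -1.34 against 0.02 for all genes, while neither amylase copy was called. Of all genes 3.95% were lower and 15.9% higher, and with scaling 4.13% and 11%. Mal-B2 fell from 209 ± 52.0 to 51.7 ± 10.2 FPKM (log2 fold change -1.98, SE 0.25, adjusted p 0.00259, limma). Between larvae, 1 of 9 tested maltases was higher and 1 lower, where 48.8% and 9.84% of all genes were. After scaling the counts were 0 and 1, against 11.3% and 19%. The lower one, Mal-A2, was at 2.09 ± 1.37 in resistant and 4.66 ± 1.01 FPKM in sensitive larvae. Whether maltases and amylases differ in their strain effect was not tested.

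**Figure D4:**
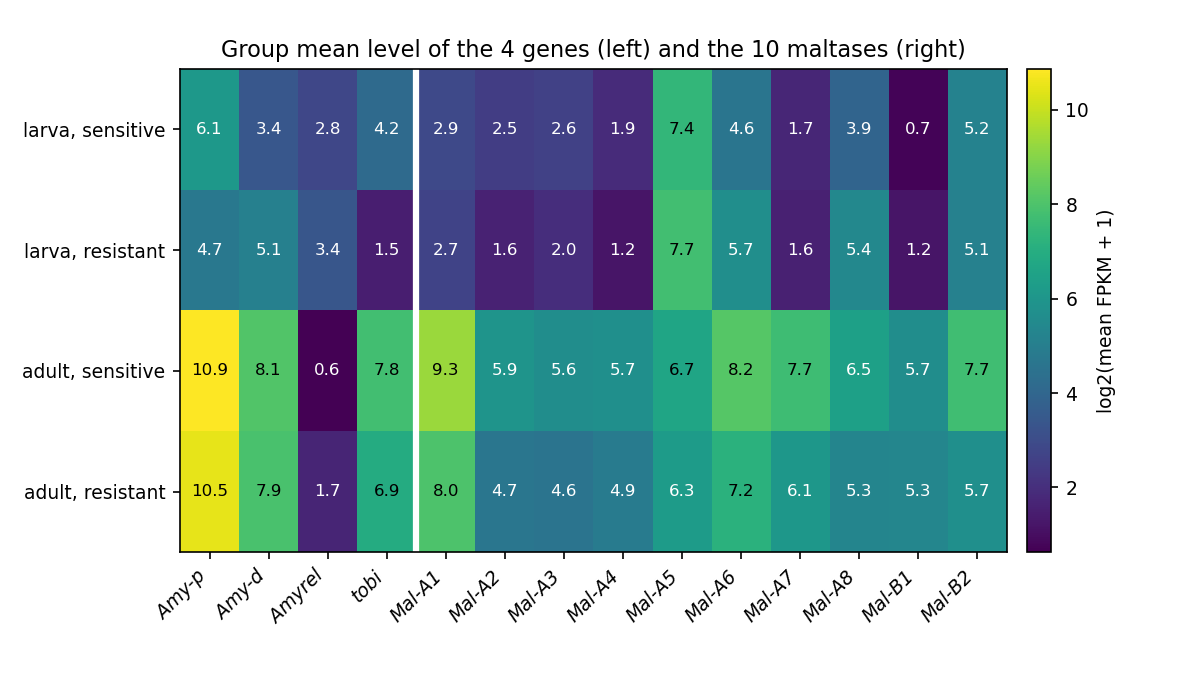
Colour and numbers give log2(mean FPKM + 1) of the 4 genes (left of the white line) and the 10 maltases (right) in each group of 3 libraries. Mal-A5 and Amyrel are the columns with both larval groups above both adult groups.

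Genes that carry the insulin and sugar signals that tobi is known to depend on were given as fixed lists. Ilp5, an insulin-like peptide of the brain, was at 6.19, 7.09 and 7.45 FPKM in sensitive larvae and at 2.39, 1.29 and 0.73 FPKM in resistant larvae. In adults the order of the strains was the reverse, at 2.08, 1.5 and 2.07 FPKM in the sensitive and 5.96, 5.83 and 4.43 FPKM in the resistant strain. Its log2 fold change, larva minus adult, was 1.46 (SE 0.17, adjusted p 9.49e-05, limma) in the sensitive and -1.42 (SE 0.26, adjusted p 0.000928) in the resistant strain, and the difference was -2.88 (SE 0.33, adjusted p 6.66e-05). Ilp2, another peptide of these neurons, was at 8.39 ± 0.35 FPKM in sensitive and 4.26 ± 1.04 FPKM in resistant larvae (-0.85, SE 0.19, adjusted p 0.00357). Ilp3 was higher in resistant larvae, at 10.2 ± 3.67 against 2.31 ± 0.47 FPKM (1.71, SE 0.23, adjusted p 0.000588). The transcripts of these peptides, measured in whole bodies, therefore did not move in one direction between the larval strains. Which tissue they came from was not tested. Ilp5 was low in resistant larvae, where counting error may be large.

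Of the 13 genes of the insulin and adipokinetic hormone list, 12 were tested in each comparison. In resistant against sensitive larvae 8 were higher and 3 lower, and with scaling 3 and 3 (median 0.82 against 0.49 for all genes, and 0.30 against 0.03 after scaling). Of all genes 48.8% were higher and 9.84% lower, and with scaling 11.3% and 19%. AkhR, the receptor of adipokinetic hormone, was among the lower, at 11.5 ± 1.58 against 19.1 ± 3.71 FPKM (-0.68, SE 0.19, adjusted p 0.0111, limma). It was also lower in resistant adults, at 7.29 ± 2.55 against 14.97 ± 0.87 FPKM (-0.99, SE 0.26, adjusted p 0.0252). Akh, the gene of the hormone itself, was higher in resistant larvae, at 9.08 ± 0.82 against 4.31 ± 1.39 FPKM. Its log2 fold change was 0.96 (SE 0.22, adjusted p 0.00438, limma) and was not called after scaling (0.48, adjusted p 0.108). In resistant adults Akh was lower (-0.69, SE 0.21, adjusted p 0.0482). In resistant adults 1 of the 12 was higher and 3 were lower, also after scaling. Of all genes 15.9% were higher and 3.95% lower, and with scaling 11% and 4.13%. Against adults, larvae had 2 higher and 3 lower in the sensitive strain, or 5 and 1 after scaling, and 3 higher and 2 lower in the resistant strain, or 7 and 2, with medians of -0.13 and 0.46 beside the same -0.62 and -0.28 of all genes. Of all genes 13.2% were higher and 55.7% lower in sensitive larvae (scaled, 26.6% and 28.4%). In resistant larvae the shares were 17.4% and 34.7% (scaled, 24.9% and 28.1%).

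Of the 7 sugar-sensing genes 6 were tested. Sugarbabe (sug), a sugar-induced transcription factor, was at 46.9 ± 16.1 in resistant and 26.3 ± 7.38 FPKM in sensitive larvae, a log2 fold change of 0.78 (SE 0.28, adjusted p 0.0373, limma) that was not called after scaling (0.24, adjusted p 0.537). In adults it was lower in the resistant strain, at 21.9 ± 5.30 against 39.8 ± 8.0 FPKM (-0.84, SE 0.26, adjusted p 0.0449). Cabut (cbt), a repressor induced by sugar, was higher in resistant larvae, at 43.9 ± 9.96 against 14.9 ± 0.81 FPKM (1.47, SE 0.18, adjusted p 0.000404, and 0.94 after scaling). Of the 6 genes, 5 were higher and 0 lower in resistant larvae, where 48.8% of all genes were higher and the list's median of 0.64 lay near the 0.49 of all genes. After scaling 1 was higher and 0 lower (median 0.10, all genes 0.03), where 11.3% and 19% of all genes were. In resistant adults 1 was higher and 1 lower, where 15.9% and 3.95% of all genes were. Against adults, 1 was higher and 2 lower in sensitive larvae, or 2 and 0 after scaling, and 3 higher and 0 lower in resistant larvae, with medians of -0.37 and 0.61 where all genes had -0.62 and -0.28. The shares of all genes were 13.2% higher and 55.7% lower in sensitive larvae (scaled, 26.6% and 28.4%). They were 17.4% and 34.7% in resistant larvae (scaled, 24.9% and 28.1%).

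Genes that make, break down or carry trehalose and glycogen, the sugar of the blood and the stored glucose polymer, were lower in larvae in 9 of 9 in the sensitive and 8 of 9 in the resistant strain, or 6 and 7 after scaling, with 0 higher. Of all tested genes 55.7% and 34.7% were lower (scaled, 28.4% and 28.1%), and 13.2% and 17.4% higher (scaled, 26.6% and 24.9%). The list's medians were -1.67 and -1.62 against -0.62 and -0.28, or -0.97 and -1.34 against -0.02 and -0.03 after scaling. Tps1, the enzyme that makes trehalose, was at 48.9 ± 3.59 FPKM in sensitive and 22.5 ± 4.91 FPKM in resistant larvae (-1.11, SE 0.19, adjusted p 0.00132, limma). AGBE, which branches glycogen, was at 79.8 ± 18.2 and 21.1 ± 4.72 FPKM (-1.87, SE 0.22, adjusted p 0.000328). In resistant against sensitive larvae 4 of the 9 were lower and 1 higher, and with scaling 6 and 0. Of all genes 9.84% were lower and 48.8% higher there, and with scaling 19% and 11.3%. In adults 2 were lower (Tps1 and Tret1-1) and 0 higher, where 3.95% and 15.9% of all genes were.

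**Figure D5:**
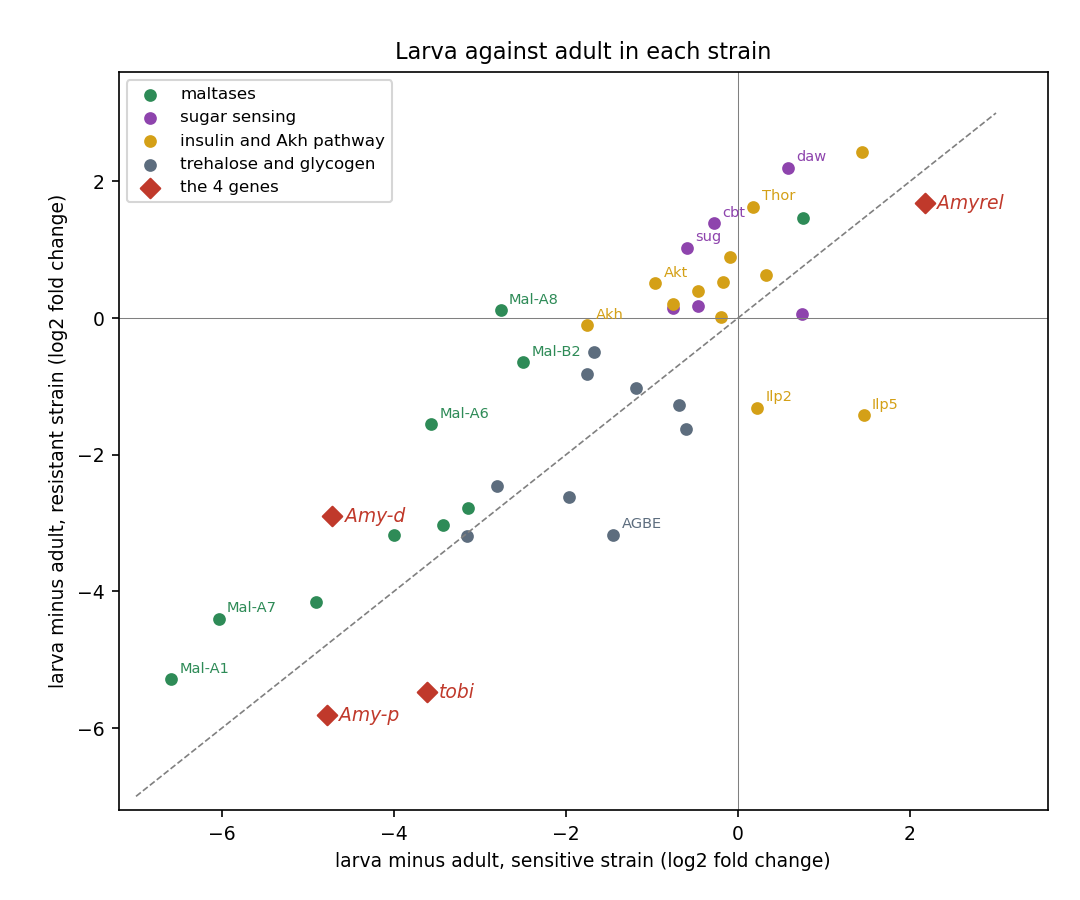
Log2 fold change, larva minus adult, in the sensitive strain (x axis) and the resistant strain (y axis) for the 4 genes (diamonds) and for the tested genes of the maltase, sugar-sensing, insulin and adipokinetic hormone, and trehalose and glycogen lists (circles); the dashed line marks equal change. The genes tobi, Amy-p and Amyrel lie below the line and Amy-d lies above it, as do the 10 maltases, of which Mal-A3 falls just below it after scaling (difference -0.01). The test of this difference called 4 of the 10 maltases higher and 0 lower (scaled, 3 and 0). Of all genes 19.7% were higher and 9.98% lower (scaled, 7.85% and 15.6%). The median difference was 1.06 for maltases and 0.30 for all genes (scaled, 0.77 and -0.03).

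Other genes with a pattern like that of the 4 were ranked by the root mean square difference of centred log2(FPKM + 1) profiles over the 12 libraries, among 12270 genes, given as a description. Hex-C, a hexokinase, was the closest to Amy-p, at 0.27 log2 units, with 3.96 ± 0.85 FPKM in sensitive and 0.78 ± 0.30 FPKM in resistant larvae. Adults had 151 ± 26.01 FPKM in the sensitive and 116 ± 27.7 FPKM in the resistant strain. Jhbp3 (0.44) and CG17560 (0.47) followed. Closest to tobi were CG17560 (0.52), Hpd, an enzyme of tyrosine breakdown (0.54), and CG9928 (0.55). For Amyrel they were CG10359 (0.25), phtm, an enzyme of ecdysone synthesis (0.27), and NimC3 (0.29), and for Amy-d GNBP-like3 (0.42), CG31104 (0.49) and CG6429 (0.51). The 2 amylase copies were not each other's nearest: Amy-p was 1.33 log2 units from Amy-d and 0.68 from tobi. With 0.1 FPKM added, 1 of the 3 genes named for Amy-p and 0 of the 3 for tobi were again among the closest, and 2 each for Amy-d and Amyrel.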

How the data were processed

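RNA was isolated from whole bodies with TRIzol reagent, and a BGISEQ-500 instrument read the libraries, according to the labels. In the submitters' processing notes dm6 is the build, and the tools listed are RSEM 1.3.3, STAR, FastQC 0.11.9 and edgeR 3.12, with no role given for any. The authors deposited FPKM for 14001 genes, rounded to 2 decimals, so no count test was used. Positions come from Ensembl release 115 on the same assembly.

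The 4 genes, the lists and the comparisons were chosen with earlier results of these data known. Lists were described by counts and medians. The naming rule takes the 4 genes, up to 2 called genes in each direction per list and comparison with the largest change, if called also after scaling, and the 3 genes closest in pattern to each of the 4. The text names only some of these. The rule was applied to the marker lists as well. Values of sug and AkhR in larvae, and of Akh in larvae and adults, stand outside it and were picked after their values were seen. FASN1, of the fat body list, was not found by name. Of the other 6 fat body markers 5 were higher in larvae in each strain, where 13.2% (sensitive) and 17.4% (resistant) of all genes were.

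Pairwise comparisons used only their own 6 libraries, and the difference between strains all 12, with limma 3.58.1 (trend and robust empirical Bayes, two-sided) in R 4.3.3. When a library was left out, the genes tested stayed the same. Depth was estimated from low values of single-transcript genes: in each library 94.2 to 97.9% fell no further than 0.2 from a whole number of reads, against 40% by chance, so read numbers behind a value are approximate. No pair of libraries held identical values, and replicates differed by more than sampling noise (chi-square per degree of freedom 7.8 to 134.9). The limma fits were also run on simulated data with the same spread for all genes and few changed genes. These libraries differ from that in both respects, so that run does not show how often calls are wrong here. Exact tests used scipy 1.17.1 in Python 3.11.15, and plots matplotlib 3.10.9.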

Additional observations from a re-analysis of the deposited data

Results flagged for a closer look

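On FPKM as deposited, the change from adult to larva differed between the strains, by the test of that difference itself, for 2 of the 4 genes. Of all 12270 tested genes 19.7% were called higher and 9.98% lower by it. After median-of-ratios scaling the genes called were tobi and Amy-p (-1.47, adjusted p 0.0365, limma), and Amy-d was not called (1.42, adjusted p 0.0979). For tobi the difference in log2 fold change, resistant minus sensitive, was -1.85, with larvae against adults at -5.47 in the resistant and -3.62 in the sensitive strain, and over 18 alternatives it lay between -2.35 and -1.70 with adjusted p of 0.000289 to 0.00393 (limma). For Amy-d it was 1.82, with larvae against adults at -2.90 and -4.72, and over 18 alternatives it lay between 1.42 and 2.24 with adjusted p of 0.0043 to 0.0979. The sum of Amy-d and its near-identical copy showed no such difference by this test (-0.10, adjusted p 0.877).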

How the results depend on the processing

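The larva against adult values of the 4 genes and of the amylase sum kept their direction and their call in 129 of 129 alternatives, and tobi in resistant against sensitive larvae in 13 of 13. In larvae, median-of-ratios scaling took the genes called from 6484 to 3355, and Amy-d lost its call under that scaling (1.10), upper-quartile scaling (1.32, adjusted p 0.0576) and the replicate block (1.62, adjusted p 0.0635), under which Amyrel gained one (0.55, adjusted p 0.0391). In the difference between strains Amy-p gained a call under both scalings (-1.47 and -1.35) and Amy-d lost it (1.42 and 1.53). Leaving out 1 library at a time gave 578 to 2364 genes called between adult strains and 2126 to 4752 in the difference between strains. It gave Amy-d 1.31 to 2.04 and Amyrel 0.31 to 0.76 in larvae, and Amyrel 0.79 to 1.20 and tobi -0.92 to -0.67 in adults. In the difference between strains it gave Amy-p -1.22 to -0.70, Amy-d 1.51 to 2.24 and the sum -0.34 to 0.29, and the Amy-p share changed by -1.3 to 1.3 points between sensitive stages. Where no cause is named, the cause was not tested. At a mean of 5 FPKM Amyrel could not be tested in 3 comparisons. No pairing by replicate number was detected: same-numbered libraries correlated in their deviations from the group means at -0.28 to 0.21, and differently numbered ones at up to 0.40. With 3 libraries per group this cannot show that the libraries were unpaired. The block changed no other call of the 4 genes. Depth limits Amyrel in sensitive adults, at 7 to 15 reads.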

Other observations

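Between the 2 amylase copies the annotation places Spn53F, a serpin gene, and the antisense RNA gene asRNA:CR45272. Spn53F was listed at 0 in all 6 larval libraries, and was at 1.07, 1.33 and 0.73 FPKM in sensitive adults and 3.25, 2.62 and 1.85 FPKM in resistant adults. It shares the adult-high direction of its neighbours, which was called for 55.7% of tested genes in the sensitive and 34.7% in the resistant strain. In the sensitive strain Spn53F itself was not tested, as fewer than 3 libraries reached 1 FPKM. Its levels are low. Spn53F was higher in resistant than in sensitive adults, whereas the means of Amy-p and Amy-d were lower in resistant adults. Its libraries did not overlap between the adult strains, nor did those of 32.1% of tested genes, in either direction. Among the midgut markers, PGRP-SC1a, an amidase that breaks down bacterial peptidoglycan, had the largest difference between strains in its stage change of the 7 markers tested. It was at 82.41, 27.53 and 15.47 FPKM in larvae and 9.20, 36.22 and 53.03 FPKM in adults of the sensitive strain, a wide spread. In the resistant strain larvae had 1.09, 0 and 1.10 FPKM and adults 100.69, 75.13 and 75.43 FPKM, a difference in log2 fold change of -5.99 (SE 0.96, adjusted p 0.00197, limma). The similar gene PGRP-SC1b gave -3.79 (SE 0.62, adjusted p 0.00118), and reads shared by these related genes could not be assigned with certainty. Spn53F was picked after its values were seen.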
